A study of Mus musculus with 3 samples.

Results

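Pericyte-like cells of the developing mouse prostate were taken from a single-cell RNA-seq table of 14573 cells, in which 101 cells met a rule on 10 genes. A cell was chosen by its own measured values: at least 1 UMI (unique molecular identifier, one counted RNA molecule) of Rgs5, at least 1 UMI of a partner gene (Kcnj8, Abcc9, Cox4i2 or Ndufa4l2), and no UMI of the endothelial genes Cdh5, Egfl7 and Emcn or of the epithelial genes Cdh1 and Cldn4. The levels of these 10 genes in the chosen cells are therefore a description of the choice and are given without a test.

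The table holds 3 libraries from normal mouse tissue dissociated with collagenase and TrypLE: the male urogenital sinus at E18.5, from which the prostate buds, and the prostate at P14 and P35. The study's mice were on a mixed C57BL/6 and 129S1/SvImJ background, and the labels of these libraries give no genotype, no number of animals and no treatment. Cells carry barcodes ending in 1, 2 or 3, and nothing in the labels ties an ending to an age, so the values below stand side by side as sets 1, 2 and 3 and the ages are not compared. The number of cells in set 1 equals that given for the E18.5 library in the study's text, while those of sets 2 and 3 differ from the numbers given for P14 and P35, and no set was assigned by its size. Each set is 1 library, which leaves no replicate and no test: intervals are 95% intervals of counting error only, and a gene is called past the fold when its level differs at least 2-fold.

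Pericytes are mural cells that lie on capillaries and small venules within the basement membrane they share with the endothelium, and they merge along the vessel tree into vascular smooth muscle cells, with which they share contractile and signalling genes. Rgs5 encodes a GTPase-activating protein that shortens signalling by vasoactive G protein-coupled receptors. Kcnj8 and Abcc9 encode the pore and the regulatory subunit of an ATP-sensitive potassium channel, Cox4i2 an alternative subunit of cytochrome c oxidase, and Ndufa4l2 a mitochondrial protein induced by low oxygen.

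The sets differed in depth, and that bears on a rule that asks for 0 UMIs. Set 1 held 766 cells with a median of 19357 UMIs, set 2 held 5350 cells with a median of 1738, and set 3 held 8457 cells with a median of 1788. One barcode was shared by sets 1 and 2, 13 by sets 2 and 3 and 0 by sets 1 and 3. Levels are given as UMIs per 1000000 of the summed total UMIs of the cells (CPM). Doublets were not called again, since the study's methods state that multiplets had been filtered out.

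In set 1 the rule chose 23 of 766 cells, a share of 3.003% (exact binomial interval 1.91 to 4.47%). It chose 13 of 5350 cells in set 2, or 0.243% (0.129 to 0.415%), and 65 of 8457 cells in set 3, or 0.769% (0.594 to 0.979%). Median depth was 29174 UMIs in the chosen cells of set 1, 1879 in set 2 and 1305 in set 3, against 19037, 1738 and 1792 in the other cells of the same sets. When every cell was thinned to 900 UMIs before the rule was applied, the shares were 0.527%, 0.140% and 0.574%, so set 1 no longer stood above set 3. The thinned rule met 4 cells in set 1, none of which had been chosen at full depth, 7 in set 2 (6 chosen before) and 44 in set 3 (39 chosen before).

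Most cells with Rgs5 were not chosen. Rgs5 UMIs were found in 97 cells of set 1, 83 of set 2 and 254 of set 3, and 74, 29 and 124 of these also had a partner gene. A UMI of an excluded gene then removed 51 cells of set 1 (68.9%), 16 of set 2 (55.2%) and 59 of set 3 (47.6%). Epithelial genes alone removed 33, 7 and 34 cells, endothelial genes alone 14, 7 and 17, and both kinds 4, 2 and 8. The removal rested on a single UMI for 9 cells of set 1, 1 of set 2 and 8 of set 3.

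**Figure D1:**
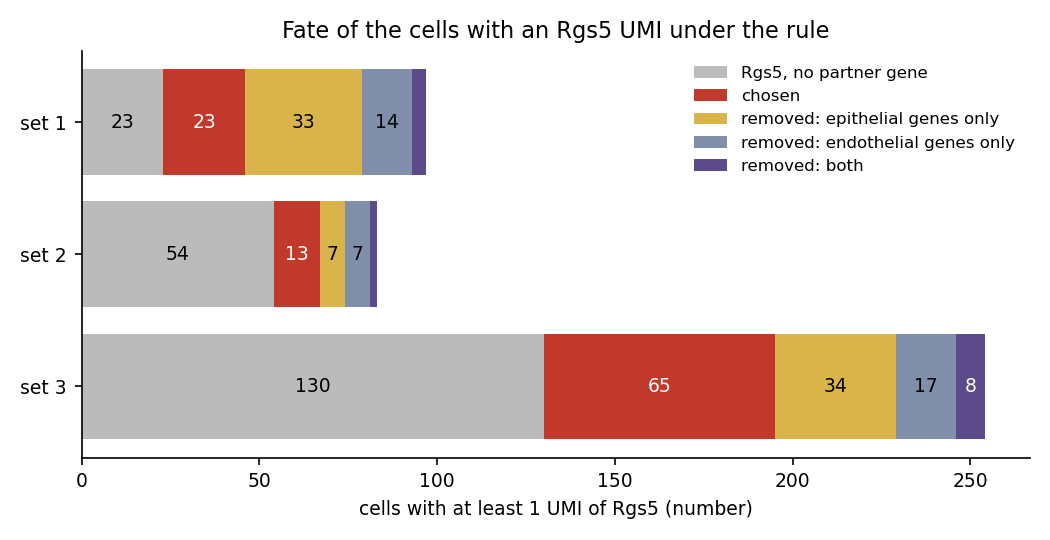
Number of cells with at least 1 UMI of Rgs5 in each barcode set, divided by what the rule did with them. The chosen cells (red) are 23 of 97 in set 1, 13 of 83 in set 2 and 65 of 254 in set 3, and cells with an epithelial gene are the largest removed group in sets 1 and 3.

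In set 1, cells that the rule removed for endothelial genes held 3 of the 4 partner genes at higher levels than the chosen cells. Kcnj8 stood at 30.01 CPM (interval 18.6 to 45.9) in the 23 chosen cells and at 103 CPM (78.9 to 133) in the 14 cells removed for endothelial genes alone. Abcc9 stood at 10.0 CPM (4.02 to 20.6) in the chosen cells, which is the level of the other cells of that set (9.29 CPM), and at 65.5 CPM (46.4 to 89.9) in the 14 removed cells. For Cox4i2 the levels were 57.2 CPM (40.8 to 77.9) and 178 CPM (145 to 215). Of the 11 cells of set 1 that had Rgs5 and all 4 partner genes, the rule kept 4 and removed 7. Rgs5 itself was higher in the chosen cells, at 1101 CPM (1024 to 1181) against 564 CPM (504 to 628) in the 14 removed cells.

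Of the 14 cells, 10 held only 1 to 3 UMIs of the endothelial genes at a median depth of 35846 UMIs, and they had Kcnj8 at 108 CPM, Abcc9 at 86.6 CPM and Cox4i2 at 260 CPM. The source of those few UMIs was not tested. The 33 cells of set 1 removed for epithelial genes alone differed in the partner genes they held: Kcnj8 and Abcc9 were at 0 UMIs, which allows up to 2.59 CPM for each, while Ndufa4l2 was at 340 CPM. In these cells the partner rule had been met by Ndufa4l2 and Cox4i2 only.

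In set 3 the chosen cells were not below the removed ones. Kcnj8 was at 267 CPM (174 to 391) in the 65 chosen cells and at 168 CPM (83.9 to 301) in the 17 cells removed for endothelial genes, with overlapping intervals, and Abcc9 was at 298 CPM (199 to 428) and 199 CPM (106 to 340). Ndufa4l2 was at 842 CPM (670 to 1045) in the chosen cells of set 3 and at 5.38 CPM in all other cells of the set. In the 13 chosen cells of set 2, Kcnj8 had 3 UMIs, Abcc9 2, Cox4i2 6 and Ndufa4l2 12, so these levels rest on very few molecules.

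**Figure D2:**
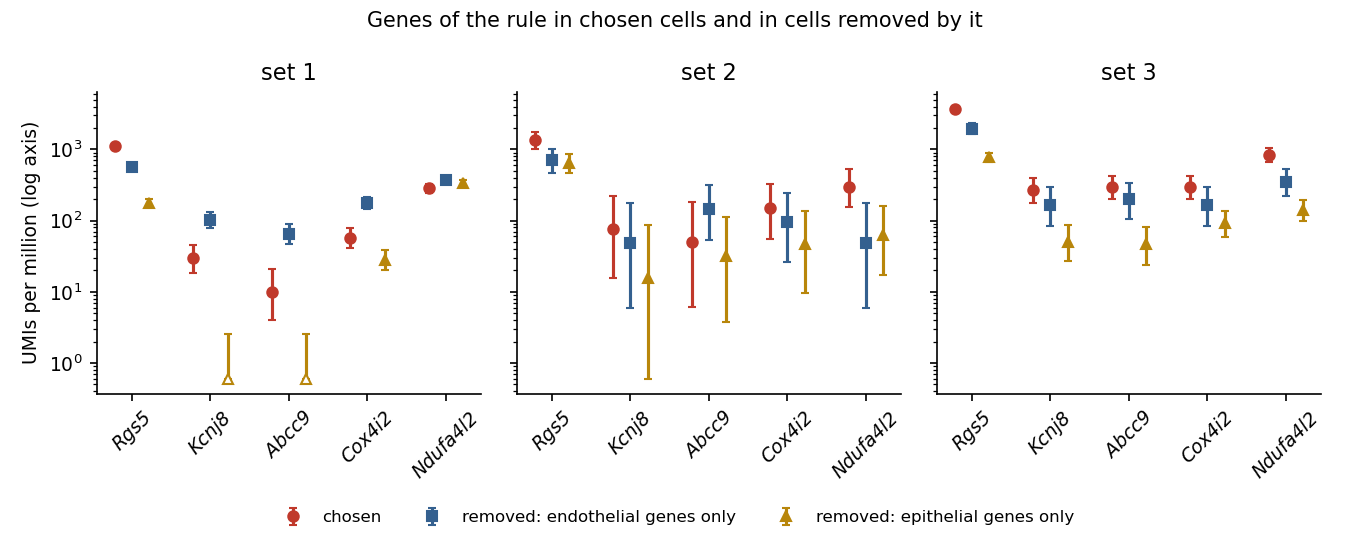
Levels (UMIs per 1000000, log axis) of Rgs5 and the 4 partner genes in chosen cells and in cells removed for endothelial or epithelial genes alone, with 95% counting intervals. Open symbols mark 0 UMIs, drawn at the foot of the axis. In set 1 Kcnj8, Abcc9 and Cox4i2 are higher in the 14 cells removed for endothelial genes than in the 23 chosen cells.

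Inside the rule, Rgs5 ranged from 1 to 180 UMIs per cell in set 1 (median 18), from 1 to 9 in set 2 (median 4) and from 1 to 19 in set 3 (median 5). Exactly 1 UMI of Rgs5 was found in 5, 3 and 13 chosen cells. A single partner gene was found in 8 of 23, 8 of 13 and 37 of 65 cells, and all 4 partners in 4, 0 and 2. Chosen cells held 53.3% of all Rgs5 UMIs of set 1, 20.3% in set 2 and 34.7% in set 3. Leukocytes served as cells that should lack Rgs5: no Rgs5 UMI was found in 43 leukocytes of set 1 (up to 5.14 CPM) or 24 of set 2 (up to 32.6 CPM). In set 3, 5 of 178 leukocytes had it, at 86.2 CPM over all 178 against 3706 CPM in the chosen cells. Those 5 cells held 42 Rgs5 UMIs together, beside a median of 5 per chosen cell. Leukocytes of set 3 thus did not serve as cells without Rgs5.

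The label was checked against markers of other cell types. The leukocyte marker list (7 genes) summed to 0 CPM in the chosen cells of sets 1 and 2 and to 41.1 CPM in set 3, and its 7 genes were all at 0 in sets 1 and 2. Epithelial markers outside the rule (5 genes with a row) summed to 81.5, 0 and 61.6 CPM against 981, 362 and 570 CPM in the other cells. The 4 endothelial markers outside the rule with a row summed to 435, 125 and 41.1 CPM, which in set 1 was 423 CPM of Flt1, a VEGF receptor, and almost nothing else. The 6 glia markers summed to 120, 728 and 144 CPM, beside 30.8 CPM in smooth muscle and 16.6 CPM in fibroblasts of set 2, and their part in the results of set 2 was not tested.

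The 6 fibroblast markers (Dcn, Lum, Pdgfra, Col3a1, Col1a2 and 1 more) summed to 15320 CPM in the chosen cells of set 1, close to the 16630 CPM of cells classed as fibroblasts there. In set 2 the sum was 7124 CPM against 14640 CPM in fibroblasts, and in set 3 it was 2105 CPM against 15640 CPM. By the same marker scoring, chosen cells of set 1 would fall to smooth muscle (8), fibroblasts (6), endothelium (5), glia (3) and no class (1), those of set 2 to smooth muscle (3), fibroblasts (4), glia (3) and no class (3), and those of set 3 to smooth muscle (26), fibroblasts (14), glia (1) and no class (24). The data thus go against one name for all 3 sets, and the cells are called chosen cells here.

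Nearest neighbours were found from expression without the 10 genes of the rule. A chosen cell of set 3 had on average 37.6% chosen cells among its 15 neighbours, against 0.253% for the other cells of that set, and 56 of 63 chosen cells with at least 200 genes had at least 1. In set 1 the shares were 28.1% and 1.80%, with 19 of 23 cells having a chosen neighbour. In set 2 they were 3.59% and 0.0937%, with 5 of 13. One cluster held 52 of the 63 cells in set 3 and another 16 of 23 in set 1, whereas the 13 cells of set 2 lay in 5 clusters with 6 in the fullest.

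These clusters were not made of chosen cells alone. The one in set 1 had 105 cells, of which 78 were classed as fibroblasts. The one in set 3 had 357 cells, of which 117 were classed as smooth muscle and 112 as epithelium, and 246 had no Rgs5 UMI. Gm13889 was at 458 CPM in those 246 cells and at 8637 CPM in the 52 chosen cells beside them.

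Among the genes outside the rule that were measurable in all 3 sets, Gm13889 had the highest smallest lower bound of the ratio of chosen over other cells. In sets 2 and 3 it counted as measurable only by its level in the chosen cells, so a ratio above 0 there was fixed by the filter and the rank is a description. Gm13889 is a small gene at chr2:93955810-93957100 (GRCm38.p6, RefSeq) that is known from mural cell profiles and whose function is little studied. It had UMIs in 14 of 23 chosen cells of set 1 (0 to 127 per cell), in 13 of 13 of set 2 (1 to 13) and in 57 of 65 of set 3. The levels were 342 CPM (300 to 388), 1656 CPM (1280 to 2106) and 6642 CPM (6140 to 7174). The log2 ratio over the other cells was 2.46 (2.26 to 2.67) in set 1, 3.38 (3.01 to 3.73) in set 2 and 5.46 (5.34 to 5.58) in set 3. In set 1 a single cell held 53.1% of its UMIs, against 7.26% for the highest cell of set 3.

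Shares of cells with a Gm13889 UMI were also compared at equal depth. Thinned to 900 UMIs, 44 of 54 chosen cells of set 3 kept a Gm13889 UMI (81.5%), against 20.4% of smooth muscle cells and 1.59% of epithelial cells. In set 2 the shares were 72.7%, 25.7% and 2.43%. In set 1 they were 17.4% (4.95 to 38.8%), 5.37% (2.35 to 10.3%) and 0% (up to 2.40%), beside 10.9% of endothelial cells, so the difference from smooth muscle was not detectable at this depth.

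Igfbp7, a secreted binding protein of insulin-like growth factors abundant around vessels, lies at chr5:77349240-77408045. It was found in 20 of 23, 13 of 13 and 64 of 65 chosen cells, at 906 CPM (837 to 980), 1781 CPM (1391 to 2247) and 5626 CPM (5164 to 6117). Its log2 ratios over the other cells were 1.56, 1.48 and 2.96. Endothelial cells had the same gene at 1016, 2378 and 2727 CPM, so only in set 3 did the chosen cells stand above them.

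Counts of genes past the fold give the scale for what follows. A gene entered a contrast with 20 UMIs in the chosen cells, or 20 expected there, so a gene absent elsewhere could enter only by being high, and the direction of such a gene is no result. In set 1, 267 of 3187 genes were at least 2-fold higher in the chosen cells than in the other cells (8.38%) and 250 were lower (7.84%). In set 2 it was 21 (11.2%) and 6 (3.21%) of 187 genes, and in set 3 it was 107 (22.5%) and 51 (10.7%) of 476. The median log2 ratio of all genes entered was -0.01, 0.07 and 0.21. Among genes with 20 UMIs expected in the chosen cells at the level of the other cells, a limit that does not look at the chosen cells and was chosen after the data were seen, 129 of 2863 (4.51%) were higher and 250 (8.73%) lower in set 1, 5 of 144 (3.47%) and 6 (4.17%) in set 2, and 28 of 351 (7.98%) and 51 (14.5%) in set 3. Their median log2 ratios were -0.08, -0.22 and -0.12. Gene lists are counted below over these genes against the other cells.

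The shares were also taken against 3 other cell classes, each alone. Over smooth muscle, 9.16% of genes were higher and 6.33% lower in set 1, 10.9% and 3.28% in set 2, and 18.8% and 7.78% in set 3. Over fibroblasts it was 6.45% and 6.03% in set 1, 9.05% and 6.03% in set 2, and 16.0% and 13.3% in set 3. Over endothelial cells it was 13.1% and 11.6%, 16.6% and 4.15%, and 17.0% and 15.1%.

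Other mural genes were past the fold in part. Of 24 such genes with a row, 8 had 20 UMIs expected in set 1, and 4 of them were past the fold, all higher (Rgs4, Lhfp, Postn and Gm13889). The median of the 8 was 0.94 on the log2 scale. Another 6 genes (Gucy1b3, Foxs1, Kcne4, Heyl, Pde5a and Ednra) entered in set 1 only by their level in the chosen cells and are described without a count. In set 2 none had 20 UMIs expected, and in set 3 it was Sparcl1 alone, which was higher. Kcne4 and Lhfp entered set 3 only by their level in the chosen cells.

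Kcne4, a regulatory subunit of voltage-gated potassium channels, was at 70.0 CPM (51.8 to 92.6) against 8.23 CPM in set 1 and at 205 CPM (125 to 317) against 18.7 CPM in set 3, with 4 UMIs in set 2. Lhfp, a tetraspan membrane protein, was at 399 CPM (353 to 448) against 62.2 CPM in set 1 and at 277 CPM (183 to 403) against 24.8 CPM in set 3. Foxs1, a forkhead transcription factor of perivascular cells, was at 114 CPM (90.7 to 142) against 7.82 CPM in set 1, where 12 of 23 cells had it, but only 2 and 1 UMIs were found in sets 2 and 3.

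Genes of vasoactive signalling were scarce in the shallow sets. Of 29 with a row, 5 had 20 UMIs expected in set 1, with 1 higher (Rgs4), 1 lower (Rgs2) and a median log2 ratio of -0.51, beside none in set 2 and 1 in set 3, which was not past the fold. Rgs2, another member of the RGS family, was at 51.4 CPM (36.0 to 71.2) against 115 CPM there. Ednra and Gucy1b3 in set 1 and Rgs16 in set 3, given next, entered only by their level in the chosen cells. Ednra, the endothelin A receptor, was at 65.8 CPM (48.1 to 87.7) against 14.7 CPM in set 1, with 2 and 7 UMIs in sets 2 and 3. Gucy1b3, a subunit of the nitric oxide receptor guanylate cyclase, was at 44.3 CPM (30.1 to 62.9) against 15.1 CPM in set 1, with 1 and 7 UMIs in sets 2 and 3. Rgs16, which like Rgs5 speeds G protein turn-off, was at 246 CPM (158 to 367) against 25.3 CPM in the 65 cells of set 3. Rgs4, a relative of Rgs5 and its neighbour in the same family, was at 107 CPM (84.3 to 134) against 34.4 CPM in set 1 and at 164 CPM (93.9 to 267) against 3.58 CPM in set 3, there on 16 UMIs.

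Basement membrane collagen IV was higher in the chosen cells than in other cells in all 3 sets. Col4a1 and Col4a2 encode the paired chains of its main network. Col4a1 was found in 21 of 23, 12 of 13 and 51 of 65 cells at 1153 CPM (1075 to 1236), 2157 CPM (1726 to 2664) and 1447 CPM (1218 to 1707), with log2 ratios of 2.12, 1.95 and 2.65. Col4a2 was at 506, 1304 and 770 CPM, with ratios of 2.34, 2.46 and 3.16, in sets 2 and 3 entering only by its level in the chosen cells. Endothelial cells had Col4a1 at 1118, 2051 and 1133 CPM, within the counting interval of the chosen cells in sets 1 and 2 and under it in set 3, while smooth muscle cells had 376, 745 and 273 CPM. For Col4a2 the endothelial levels were 491, 1013 and 419 CPM, and in set 3 the log2 ratio of chosen over endothelial cells was 0.88 (0.50 to 1.23).

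The rest of the basement membrane list was uneven. Of 22 genes with a row, 13 had 20 UMIs expected in set 1 with 5 higher and 2 lower, only Col4a1 in set 2, and only Col4a1 and Bgn in set 3, all of these higher. Fn1, fibronectin, was at 2031 CPM (1927 to 2139) against 208 CPM in set 1, but at 51.3 CPM (16.7 to 120) against 44.5 CPM in set 3. Bgn, the proteoglycan biglycan, was at 2385 CPM (2272 to 2503) against 346 CPM in set 1 and at 472 CPM (346 to 630) against 220 CPM in set 3.

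**Figure D3:**
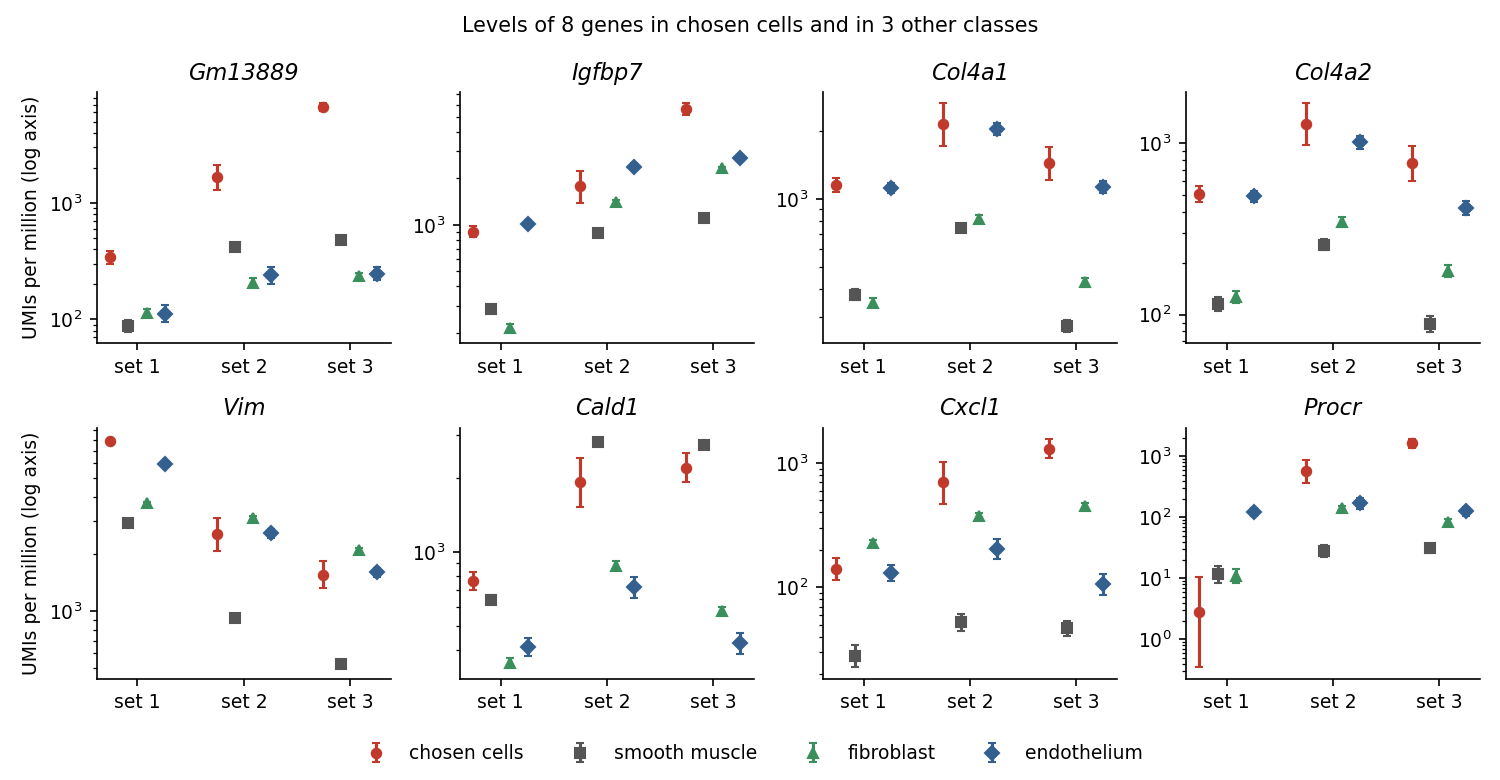
Levels (UMIs per 1000000, log axis) of 8 genes in chosen cells and in cells classed as smooth muscle, fibroblast or endothelium, by barcode set, with 95% counting intervals. Gm13889 is highest in the chosen cells of every set, Col4a1 and Col4a2 lie near the endothelial level in sets 1 and 2 and above it in set 3, and Procr is high in the chosen cells of sets 2 and 3 only.

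Contractile genes were present in all 3 sets. Of 19 such genes with a row, 11 had 20 UMIs expected in set 1 with 4 higher and 0 lower than in other cells, 9 in set 2 with 0 past the fold either way, and 9 in set 3 with 2 higher and 0 lower. Outside the markers that define the smooth muscle class, comparison with smooth muscle gave 0 higher and 2 lower of 10 genes in set 1, 1 higher and 2 lower of 6 in set 2, and 1 higher and 4 lower of 7 in set 3. The higher one was Tpm4, a tropomyosin of non-muscle cells, in both sets. This comparison took genes with 20 UMIs in the chosen cells or 20 expected there, so a gene could enter by being high. Of all genes compared with smooth muscle, 10.9% were higher in set 2 and 18.8% in set 3.

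Myl9, the regulatory light chain of smooth muscle myosin, was found in 23 of 23 cells of set 1 at 973 CPM (902 to 1049), in 7 of 13 of set 2 at 3085 CPM (2564 to 3681) and in 46 of 65 of set 3 at 2659 CPM (2345 to 3003). The other cells had 250, 2029 and 1130 CPM, and the smooth muscle cells, which Myl9 helped to class, had 1023, 7919 and 6610 CPM. The level in set 2 rested on few cells: 1 cell held 49.6% of the Myl9 UMIs, and the log2 ratio of 0.60 turned to -0.85 when each cell had equal weight. Cald1, caldesmon, was at 765, 1932 and 2207 CPM, with log2 ratios of 1.45, 0.90 and 1.82 over the other cells, beside 640, 2817 and 2723 CPM in smooth muscle.

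Tpm2, beta-tropomyosin, was at 690, 4114 and 3737 CPM, and its log2 ratio over the other cells was 1.78 in set 1 (1.64 to 1.92), 0.71 in set 2 (0.48 to 0.93) and 0.89 in set 3 (0.74 to 1.04). Few cells carried the difference in the shallow sets. In set 3, 1 cell held 28.8% of the UMIs, and the ratio fell to -0.06 without the 10% of chosen cells that had the most UMIs. Actg2, gamma smooth muscle actin, behaved likewise: it was found in 15 of 65 cells of set 3. Its ratio of 0.94 turned to -0.47 without the 10% of chosen cells that had the most UMIs. Ppp1r14a, an inhibitor of myosin phosphatase, was at 75.8 CPM (56.7 to 99.1) against 25.1 CPM in set 1 and at 195 CPM (117 to 305) against 17.1 CPM in set 3, on 19 UMIs. It entered set 1 only by its level in the chosen cells, so its direction there was fixed, and it did not meet the filter in set 3.

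The promoters of Rgs5 and Myl9 are shown as those of the gene that every chosen cell had to hold and of a contractile gene described beside it. They are the 250 bases before the start that RefSeq's promoter table takes for each gene on the forward strand (GRCm38.p6), at chr1:169655251-169655500 for Rgs5 and chr2:156775214-156775463 for Myl9. RefSeq's row for the whole Myl9 gene begins earlier, at base 156775408, so the end of that window lies within the gene as the row places it. Capitals mark a CArG box, the site of serum response factor, searched on both strands.
Rgs5: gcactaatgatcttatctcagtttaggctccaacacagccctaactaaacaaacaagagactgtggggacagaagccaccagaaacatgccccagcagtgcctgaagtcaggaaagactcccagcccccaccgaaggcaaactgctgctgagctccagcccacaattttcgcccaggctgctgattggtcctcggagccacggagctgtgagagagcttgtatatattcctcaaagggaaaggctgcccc
Myl9: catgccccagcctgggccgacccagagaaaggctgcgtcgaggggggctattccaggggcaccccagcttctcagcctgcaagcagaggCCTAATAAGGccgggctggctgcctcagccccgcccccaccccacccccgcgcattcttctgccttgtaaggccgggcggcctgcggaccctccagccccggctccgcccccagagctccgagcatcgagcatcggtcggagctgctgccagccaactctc
The Myl9 window held 1 box whose first base lies 161 bases before the start taken in the promoter table, and the Rgs5 window held 0. Such a box was found in 1.47% of 32851 promoters of this length and in 2 of 17 contractile genes with a promoter (Myl6 and Myl9). A match of letters is a description and says nothing of binding.

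Matrix genes of fibroblasts were counted in the same way. Of 20 fibrillar matrix genes with a row, 18 had 20 UMIs expected in set 1 with 13 higher and 0 lower, 5 in set 2 with 1 higher and 0 lower, and 5 in set 3 with 0 higher and 1 lower. The medians were 1.5, 0.86 and -0.09 on the log2 scale.

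Dcn, the small proteoglycan decorin and a usual fibroblast marker, was at 2162 CPM (2055 to 2274) against 1655 CPM in the other cells of set 1, with 0 to 272 UMIs per cell and 16 of 23 cells at 10 or more. In set 3 it was at 328 CPM (225 to 464) against 1758 CPM, and 50 of 65 cells had none. Col1a2, a chain of collagen I, was at 5829 CPM (5651 to 6010) against 1568 CPM in set 1 and at 647 CPM (497 to 828) against 626 CPM in set 3. Without the 6 cells that scored as fibroblasts, the Dcn ratio of set 1 changed from 0.39 to -0.32.

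Eln, elastin, was among the highest genes of set 1, at 4961 CPM (4797 to 5129) against 398 CPM, in 21 of 23 cells with 72 UMIs in the median cell. Endothelial cells of set 1 had Eln at 2752 CPM, a log2 ratio of 0.85, while fibroblasts had 649 CPM and smooth muscle 167 CPM. In set 3 Eln was at 318 CPM (216 to 452) against 47.8 CPM, in 13 of 65 cells, and it entered there only by that level. Fibroblasts of set 3 had 218 CPM, a log2 ratio of 0.55 (-0.02 to 1.06), beside 38.9 CPM in smooth muscle and 87.7 CPM in endothelial cells. Mgp, matrix Gla protein, an inhibitor of calcification, was the only gene named for set 1 alone: it was at 2666 CPM (2546 to 2789) against 317 CPM there, at 1104 CPM against 791 CPM in set 2 and at 883 CPM against 940 CPM in set 3.

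Chosen cells of set 1 were also set side by side by their UMIs of Rgs5, a gene of the rule, as a description. The 14 cells with 10 or more Rgs5 UMIs had Myl9 at 1292 CPM, Eln at 6608 CPM and the EGFP transgene at 41.5 CPM. The 9 cells with fewer had Myl9 at 372 CPM, Eln at 1850 CPM and EGFP at 842 CPM, of whose 204 UMIs 1 cell held 133. Across the 23 cells, rates of Rgs5 followed those of Col4a1 (Spearman 0.77), Igfbp7 (0.69), Eln (0.68) and Myl9 (0.54) more than those of Dcn (-0.24), a description within 1 library whose cells also share depth and total.

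Nor did the mural and fibroblast genes split cleanly by cell. Of the 23 cells, 16 had at least 10 Dcn UMIs, 11 had at least 10 Myl9 UMIs and 7 had both. In set 3 the same counts were 1, 9 and 1 of 65. A limit of 10 UMIs is not the same level in both sets. The median depth of chosen cells was 29174 UMIs in set 1 and 1305 in set 3, so these counts are not compared between the sets.

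**Figure D4:**
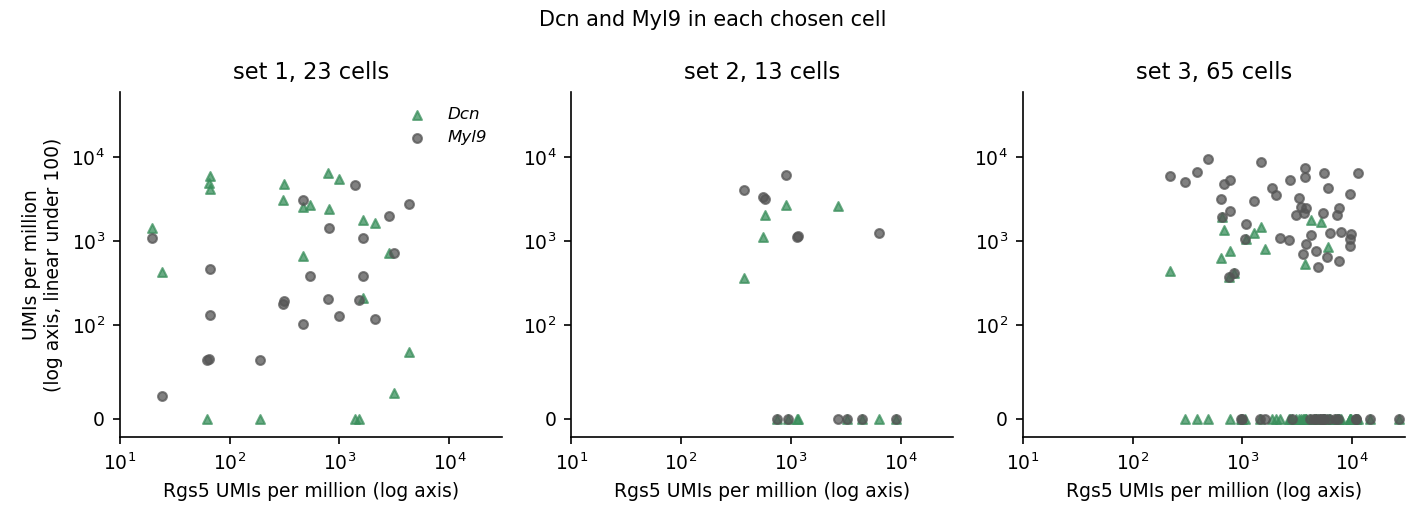
Dcn (triangles) and Myl9 (circles) against Rgs5 in each chosen cell, all in UMIs per 1000000 of that cell's total, on log axes that are linear near 0. In set 1 most of the 23 cells have both genes at full depth. In set 3, 50 of the 65 cells have no Dcn UMI. The sets differ in depth, so these counts are not compared between them. With cells thinned to 900 UMIs, Dcn was found in 13 of 23 chosen cells of set 1 and 9 of 54 of set 3. Myl9 was found in 8 of 23 and 41 of 54 of the same cells.

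Further genes led set 1 alone, by a rule added after the data were seen (the 12 highest lower bounds in a set). Acan, Col11a1 and Chgb, given next, entered set 1 only by their level in the chosen cells. Their direction there was fixed by the filter. Acan, the cartilage proteoglycan aggrecan, was at 34.3 CPM (22.0 to 51.0) against 0.252 CPM, with 24 UMIs in 4 cells of which 1 held 62.5%. Col11a1, a fibrillar collagen chain, was at 267 CPM (230 to 308) against 25.7 CPM in 16 of 23 cells. Chgb, a protein of neuroendocrine granules, was at 350 CPM, but its 245 UMIs came from 2 cells and 75.9% from 1 of them.

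Procr and Gm13889 were the genes among the 12 leaders of both set 2 and set 3, and both entered those sets only by their level in the chosen cells. Procr, the endothelial protein C receptor, lies at chr2:155751125-155755478 and is known from endothelium and some stromal progenitors. It was at 577 CPM (366 to 866) against 53.9 CPM in set 2 and at 1632 CPM (1388 to 1907) against 43.8 CPM in set 3, in 8 of 13 and 32 of 65 cells. In set 1, 2 UMIs in 1 of 23 cells gave 2.86 CPM (0.346 to 10.3) against 13.9 CPM in the other cells. Endothelial cells had Procr at 123.4, 171 and 126 CPM, under the chosen cells of sets 2 and 3.

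Set 3 was led by further genes as well. Apold1, an immediate early gene of endothelium, was at 595 CPM (452 to 770) against 11.7 CPM in 30 of 65 cells, and at 251 CPM (120 to 461) against 5.73 CPM in set 2, there on 10 UMIs of which 1 cell held 50%. In set 1 it was at 12.9 CPM (5.88 to 24.4) against 23.9 CPM, on 9 UMIs in 2 cells. Apold1 met the UMI filter in set 3 alone, and there only by its level in the chosen cells. Its direction in set 3 was thus fixed by the filter. The respiratory chain list had 0 of 15 genes higher and 1 lower in set 3, with a median log2 ratio of -0.14.

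Genes of interferon and inflammation are described next, of which Isg15 and Il6 entered set 3 only by their level in the chosen cells. Isg15, a ubiquitin-like interferon-induced protein, was at 1499 CPM (1266 to 1763) against 128 CPM in 39 of 65 cells, beside 909 CPM in endothelial cells. Il6, an inflammatory cytokine, was at 318 CPM (216 to 452) against 20.9 CPM in 18 of 65 cells. Ifitm3, an interferon-induced membrane protein, was found in 65 of 65 cells at 4476 CPM (4066 to 4916) against 1850 CPM, beside 4103 CPM in endothelial cells, which lies within the counting interval. It was named for set 3 alone, with log2 ratios of 0.21 in set 1 and -0.28 in set 2.

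Chemokines were carried by fewer cells. Cxcl1, which draws neutrophils, was at 142 CPM (115 to 172) against 83.2 CPM in set 1, where 1 cell held 64.7% of the UMIs, at 702 CPM (467 to 1015) against 155 CPM in set 2 and at 1304 CPM (1087 to 1551) against 164 CPM in set 3, in 22 of 65 cells. Cxcl10, which draws T cells, was at 82.9 CPM against 134 CPM in set 1, at 752 CPM against 187 CPM in set 2 and at 1437 CPM against 316 CPM in set 3. One cell held 53.3% of its UMIs in set 2 and 26.4% in set 3, and the median chosen cell had 0 in each set. Of 12 chemokine and cytokine genes with a row, 6 had 20 UMIs expected in set 1 with 1 higher and 1 lower, none in set 2, and Cxcl10 alone in set 3, which was higher. Cxcl1 and Cxcl10 in set 2 and Cxcl1 and Il6 in set 3 entered only by their level in the chosen cells. Fibroblasts had Cxcl1 at 229, 373 and 453 CPM, above the chosen cells in set 1 and below them in sets 2 and 3.

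Immediate early genes are switched on within minutes of a stimulus and also during tissue dissociation. Of 16 with a row, 16 had 20 UMIs expected in set 1 with 0 higher and 2 lower, 4 in set 2 with 0 past the fold, and 13 in set 3 with 4 higher (Fosb, Junb, Atf3 and Zfp36) and 1 lower (Hspb1). Junb was at 3018 CPM (2683 to 3384) against 928 CPM in set 3 and at 666 CPM (607 to 729) against 1230 CPM in set 1. Fibroblasts of set 3 had Junb at 2001 CPM, a log2 ratio of 0.59 and not past the fold. Smooth muscle had 1243 CPM and endothelial cells 1325 CPM. The part of dissociation in these values was not tested. Id3, an inhibitor of DNA binding induced by BMP signals, was at 2792 CPM against 933 CPM in set 3, with log2 ratios of 0.58 and 0.49 in sets 1 and 2. In set 3, Id3 was at 2271 CPM in fibroblasts, 1484 CPM in smooth muscle and 1554 CPM in endothelial cells. None of these 3 differences was past the fold.

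**Figure D5:**
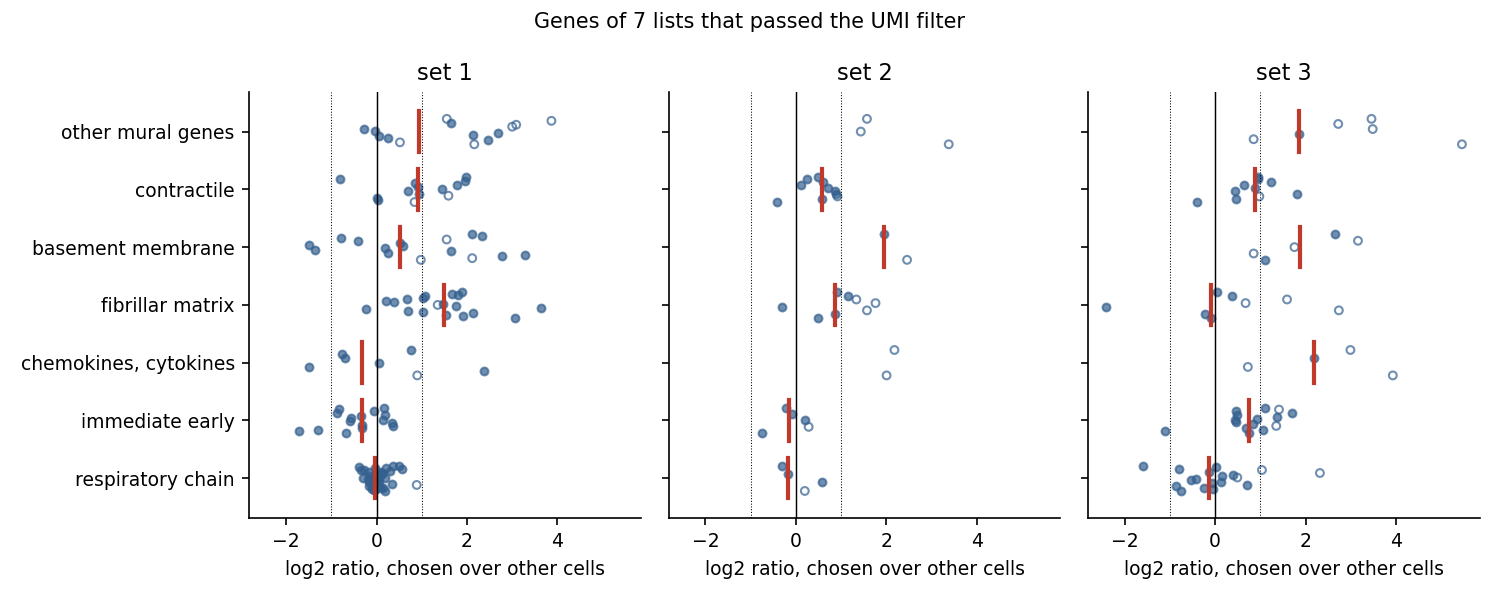
Log2 ratio of chosen over other cells for each gene of 7 lists that passed the UMI filter, by barcode set. Filled points are genes with 20 UMIs expected in the chosen cells, open points genes that entered only by their level there, red bars medians of the filled points and dotted lines the 2-fold limits. The median of the immediate early genes is -0.33 in set 1 and 0.75 in set 3. Open points lie above 0 by the construction of the filter.

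Of 29 transcription factor genes with a row, 21 had 20 UMIs expected in set 1 with 3 higher and 2 lower, 0 in set 2, and 3 in set 3 with 0 past the fold. Zeb2 and Nr2f2 entered set 3 only by their level in the chosen cells. Zeb2, a repressor active in mural and mesenchymal cells, was at 359 CPM (250 to 500) against 52.3 CPM in set 3 and at 246 CPM (211 to 285) against 83.9 CPM in set 1. Nr2f2, a nuclear receptor of venous and stromal cells, was at 236 CPM (150 to 354) against 59.6 CPM in set 3 and at 80.0 CPM against 112 CPM in set 1.

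Of 17 mitosis genes with a row, 11 had 20 UMIs expected in set 1 with 4 higher and 0 lower, and none in sets 2 and 3. Ube2c, the ubiquitin-conjugating enzyme of the anaphase-promoting complex, was at 489 CPM (438 to 544) against 140 CPM, found in 8 of 23 cells with 37.1% of its UMIs in 1. Of the S-phase genes, 0 of 11 were past the fold, with a median log2 ratio of -0.65.

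The 15 genes with the largest smallest lower bound among 179 genes that entered in all sets were Gm13889, Col4a2, Col4a1, Igfbp7, Vim, Cald1, Tpm2, Cxcl1, Cd81, Myl9, Flna, Cst3, Ube2s, Rap1b and Gnas. Gm13889, Col4a2, Cxcl1 and Flna in sets 2 and 3 and Cd81, Cst3 and Rap1b in set 2 entered only by their level in the chosen cells, so their direction there was fixed by the filter. Several of them changed sign under other settings: Tpm2 in sets 2 and 3, Myl9, Cald1, Ube2s, Cst3 and Flna in set 2, and Gnas and Rap1b in set 1. Vim, the mesenchymal intermediate filament, was found in 23 of 23, 13 of 13 and 48 of 65 cells at 7821, 2534 and 1560 CPM, with log2 ratios of 1.75, 1.11 and 1.47. Fibroblasts had Vim at 3709, 3106 and 2101 CPM and endothelial cells at 5953, 2566 and 1600 CPM. Only in set 1 did the chosen cells stand above both. Flna (filamin A), Ube2s, Rap1b and Gnas were past the fold in none of the sets except Ube2s in set 3, at 1.23.

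The 10 genes with the lowest largest upper bound over the sets were Sfn and Cd24a, both epithelial, and 8 genes of translation, among them Eef1b2, Rpl32, Rplp0, Rpl12, Rps3a1, Rpl22 and Rps20. Sfn, an epithelial 14-3-3 protein, was at 1.43 CPM against 738 CPM in set 1, at 25.1 CPM against 1612 CPM in set 2 and at 216 CPM against 1859 CPM in set 3. With every cell thinned to 900 UMIs and the chosen cells kept, the ratio of Rps3a1 turned to 0.045 in set 1, while with the rule applied after thinning that of Rpl32 turned to 0.033 in set 2. The translation genes were lower by less, for example Rplp0, whose log2 ratio was -0.41 in set 1 (-0.48 to -0.34), -0.56 in set 2 (-0.86 to -0.28) and -1.05 in set 3 (-1.29 to -0.81). The other cells include many epithelial cells, and in set 3 Rplp0 was at 1468 CPM (1237 to 1729) in chosen cells against 1964 CPM in smooth muscle and 2176 CPM in fibroblasts.

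Within set 3, levels were also set side by side by Rgs5 UMIs, as a description. Gm13889 was at 5690 CPM (4764 to 6743) in the 13 chosen cells with 1 Rgs5 UMI, at 9694 CPM (8400 to 11130) in the 16 with 2 to 4, and at 5872 CPM (5240 to 6560) in the 36 with 5 or more. Procr was at 1283 CPM (866 to 1832), 2219 CPM (1624 to 2959) and 1557 CPM (1240 to 1930) in the same groups. Myl9 was at 4578 CPM (3752 to 5532), 2122 CPM (1542 to 2849) and 2026 CPM (1662 to 2446), and in the last group 1 cell of 7839 UMIs held 24 of the 108 Myl9 UMIs. The intervals of Procr overlap between neighbouring groups. Across the 65 cells the Spearman correlation with the Rgs5 rate was -0.41 for Dcn, -0.35 for Eln, -0.34 for Myl9, 0.36 for Igfbp7 and 0.37 for Col4a1, a description within 1 library. By cluster, Gm13889 was at 8637 CPM (7943 to 9375) in the 52 cells of the leading cluster and at 2428 CPM (1913 to 3039) in the other 13, and Procr at 2284 CPM and 256 CPM.

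Cells of set 3 that had Rgs5 and no partner or excluded gene lay between. There were 36 of them, at a median of 1103 UMIs, with Gm13889 at 3846 CPM (3398 to 4337), Igfbp7 at 2603 CPM and Procr at 795 CPM (599 to 1035). The 65 chosen cells had a median of 1305 UMIs, and the part of depth in the line between both groups was not tested.

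The transgene row EGFP had UMIs in set 1 only. Of 23 chosen cells, 12 had it, at 319 CPM (278 to 363), with 59.6% of the UMIs in 1 cell. Fibroblasts of that set had 1235 CPM (1206 to 1265), smooth muscle 1081 CPM (1047 to 1116), endothelium 169 CPM (147 to 193) and leukocytes 4.18 CPM. The labels of these libraries do not say which allele the row stands for.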

How the data were processed

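Single-cell RNA-seq libraries (10x Genomics) from 3 tissues, the E18.5 urogenital sinus and the P14 and P35 prostate, were deposited as 1 table. Per the labels and the study's methods, the authors aligned reads to mm10 with added transgene sequences in Cell Ranger 3.1.0, removed empty droplets, multiplets and cells high in mitochondrial reads, and deposited natural log values, ln(1 + 10000 times a UMI's share of its cell). The labels name the third and the methods the second version of the 3' chemistry. The table used here covers part of the genome (9784 gene rows) and 9781 rows were used.

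UMIs were recovered from the steps of these values: 100% of 11120281 values above 0 were whole within 0.05. A design that had foreseen counts was kept. No sample label matched a barcode ending, so sets were not assigned to ages. CPM carry exact Poisson intervals, shares exact Clopper-Pearson intervals and log2 ratios exact binomial intervals at 95%. These cover counting error only. Genes needed 20 UMIs in the chosen cells, or 20 expected there, and against 0 UMIs a floor of 3 UMIs was used. Other cells were classed by marker lists, each with at least 3 UMIs. Clusters were made in scanpy 1.11.5 (2000 variable genes, 30 components, 15 neighbours, leidenalg 0.10.2 at resolution 0.5). The members and lists were chosen with earlier results of these data known. Named genes were the 15 with the highest smallest lower bound and the 10 with the lowest largest upper bound over the sets, up to 5 per set past the fold in that set alone, and list genes. The leaders of each set (12 genes) were added after the data were seen. Scripts (Python 3.11.15, numpy 2.4.6, pandas 2.3.3, scipy 1.17.1) were tested on simulated data. Results for some genes are not reported here.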

Additional observations from a re-analysis of the deposited data

Results flagged for a closer look

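The values here were picked out because the ratio of chosen over other cells pointed in opposite directions in 2 sets, with counting intervals on either side of 0. With 1 library per set, none of these differences was tested. Junb, an AP-1 transcription factor, had a log2 ratio of 1.702 in set 3 and -0.885 in set 1, and Atf3, a stress-induced factor, of 1.361 and -0.556. The chemokine Cxcl10 stood at 2.007 in set 2 and 2.185 in set 3 against -0.698 in set 1. For Des, the muscle intermediate filament desmin, the ratio was 0.958 in set 3 and -0.807 in set 1. Dcn, decorin, went the other way, with 0.386 in set 1 and -2.420 in set 3. Igfbp5, a binding protein of insulin-like growth factors, had 1.650 in set 3 and -1.238 in set 1. Nr2f2 had 1.986 in set 3 and -0.480 in set 1. Igfbp5 and Nr2f2 in set 3 and Cxcl10 in set 2 met the filter on UMIs only by their level in the chosen cells, so their positive sign there was fixed by it. Some of these opposite signs ended under other settings: Des in set 3 turned to -0.11 without the deepest 10% of chosen cells, -0.20 when the chosen cells were thinned to 900 UMIs and -0.25 with equal weight per cell. Dcn in set 1 turned to -0.32 without cells scored as fibroblasts and to -0.14 when the 23 chosen cells were thinned, Cxcl10 in set 1 to 0.11 with equal weight and 0.066 on the deposited values, and Igfbp5 in set 3 to -0.001 on the deposited values.

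EGFP is a transgene outside the main measurement. It was picked out at 318.7 CPM in the chosen cells of set 1, beside 0 UMIs in sets 2 and 3.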

How the results depend on the processing

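No paired analysis was possible because the 3 barcode sets are single libraries. Of 18 alternative values for the shares of chosen cells, 14 stayed within the counting interval; of 84 for counts of genes past the fold, 49 stayed within 1.5 times; of 2035 for gene ratios, 71 changed sign and 572 moved without doing so. The cause was not tested for any of them. With at least 2 partner genes the share was 0.09346% in set 2 and 0.331% in set 3, and with the rule applied after thinning to 900 UMIs it was 0.527% in set 1 and 0.574% in set 3. The thinned rule met 4 cells in set 1, 0 of them chosen at full depth, so its values for set 1 below describe other cells. A second thinning, added after seeing the data, kept the cells chosen at full depth.

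Genes at least 2-fold higher and lower (267 and 250 in set 1, 21 and 6 in set 2, 107 and 51 in set 3) became 1 and 0, 0 and 1, and 31 and 17 with the rule applied after thinning, and 15 and 0, 7 and 3, and 49 and 20 with the same cells thinned. Over genes with at least 20 UMIs expected, also added after seeing the data, 129, 5 and 28 were higher in sets 1, 2 and 3. With at least 50 UMIs they became 141 and 80, 8 and 3, and 47 and 23, and at 4-fold 69 and 126, 5 and 2, and 45 and 17. With at least 2 partner genes, 9 were higher in set 2, and 46 higher and 30 lower in set 3. In set 2, 13 were higher without the deepest 10% of chosen cells and 9 within the leading cluster, while 10 were lower with at least 2 Rgs5 UMIs, 13 with equal weight per cell and 13 without cells scored as fibroblasts, an alternative chosen after seeing the data.

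In set 1, the 4 other cells that met the thinned rule had log2 ratios of the opposite sign for Cd24a (1.27), Eef1b2 (0.12), Rpl32 (0.22), Dcn (-1.24), Col1a2 (-1.21) and Col3a1 (-0.46), whereas in the 23 chosen cells thinned the sign changed for Dcn (-0.14), Rap1b (-0.196) and Rps3a1 (0.045) and not for the other 5. With at least 2 partner genes and in the leading cluster the sign changed for Gnas (-0.082 and -0.127) and Chgb (-2.15 and -1.61). Others were Cxcl10 with equal weight (0.11) and on the deposited values (0.066), Ifitm3 with 1 excluded UMI allowed (-0.062) and Dcn without cells scored as fibroblasts (-0.32).

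In set 2, Tpm2, Myl9 and Actg2 changed sign in the leading cluster (-2.73, -2.42 and -1.22), after thinning (-1.07, -0.87 and -1.41; same cells thinned -0.59, -0.60 and -0.65), with equal weight (-0.66, -0.85 and -1.13) and on the deposited values (-0.26, -0.16 and -0.33), and Myl9 and Actg2 without the deepest 10% (-0.28 and -1.02). Thinning also turned Cald1 (-0.33), Ube2s (-0.33), Rpl32 (0.033) and Hspb1 (0.82), the same cells thinned Flna (-0.33), Mgp (-0.28) and Col1a2 (-0.20), equal weight Mgp (-0.34) and Col1a2 (-0.30), the deposited values Flna (-0.074) and Hspb1 (0.21), the leading cluster Cst3 (-0.31) and Col1a2 (-0.11), and 2 partner genes Cst3 (-0.54).

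In set 3, Tpm2 and Actg2 changed sign with at least 2 Rgs5 UMIs (-0.025 and -0.017), with 2 partner genes (-0.18 and -1.99), without the deepest 10% (-0.06 and -0.47), after thinning (-1.24 and -1.48; same cells -0.31 and -0.58) and with equal weight (-0.33 and -0.32), and Actg2 also in the leading cluster (-0.11) and on the deposited values (-0.004). Des changed without the deepest 10% (-0.11), after thinning (-1.29; same cells -0.20) and with equal weight (-0.25), Col3a1 after thinning (-0.55; same cells -0.63), with equal weight (-0.44) and without cells scored as fibroblasts (-0.24), and Igfbp5 on the deposited values (-0.001).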
